A study of Homo sapiens with 12 samples.

Results

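The 8 genes described here encode factors and coactivators that work with the androgen receptor in prostate cells: FOXA1, GATA2, HOXB13, GRHL2, NR3C1, NCOA1, NCOA2 and NCOA3. They were chosen by name, with earlier results of these data known. They are 8 of the 61860 genes counted in each of 2 tables, and the gene of the receptor itself is not among them. The study compared gene expression in 22Rv1, a human prostate cancer cell line grown in serum-containing medium, after siRNA knockdown. Its 12 libraries form 4 groups of 3: cells given siRNA against ETS1, an ETS family transcription factor, and the controls of that knockdown; and cells given siRNA against ZNF783, a zinc finger protein, and the separate controls of that knockdown. The sources used here do not describe the control treatment, the siRNA sequences or the time of harvest, all groups are of 1 cell line, and nothing in the labels tells whether a group's 3 libraries came from 3 cultures. The p-values therefore rest on the spread among these libraries, which may be technical only.

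The androgen receptor is a steroid-activated transcription factor on which luminal prostate cells and most prostate cancers depend. Pioneer factors such as FOXA1 and GATA2 open chromatin where the receptor then binds, HOXB13 is a homeobox factor of the prostate lineage that binds beside it, and GRHL2 is a grainyhead factor that maintains epithelial genes. NR3C1 encodes the glucocorticoid receptor, a related receptor that recognises much the same DNA sequence. NCOA1, NCOA2 and NCOA3 encode the steroid receptor coactivators, the p160 family, which dock on hormone-bound receptors and recruit histone acetyltransferases.

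The deposited values are read counts per gene, with totals of 13518177 to 48996691 per library. All 8 genes were well covered, with 605 to 13056 counts in every library, and all 8 passed the filter on low counts in both experiments. Levels are given as CPM (counts per 1000000 counts of the library, scaled by the trimmed mean of M values within each experiment), and as TPM (a like share of transcripts, which divides by exon length) where genes are compared with each other. Of 10 markers of luminal prostate cells 7 lay at 10 CPM or more in every library, while TRPM8, another of the 10, lay under 1 CPM throughout. Of 14 markers of other cell types 10 lay under 1 CPM in every library, the T-cell gene CD3E at 0 counts in all 12. At 10 CPM or more in every library were 2 of the 14, the synaptic vesicle gene SYP (40.0 to 73.2 CPM over the 12 libraries) and the collagen gene COL1A1 (12.7 to 28.05 CPM). The summed level of the luminal list was 2607 to 2699 CPM with ETS1 siRNA and 2628 to 2663 CPM in the ETS1 controls, and 2287 to 2313 CPM with ZNF783 siRNA and 2486 to 2534 CPM in the ZNF783 controls. That of the other list was 55.8 to 72.3 CPM with ETS1 siRNA and 84.0 to 90.9 CPM in the ETS1 controls, and 79.8 to 83.4 CPM with ZNF783 siRNA and 95.3 to 104 CPM in the ZNF783 controls. The part of these shifts in the results was not tested, and fewer cells of a type and less RNA per cell cannot be told apart in bulk RNA. ETS1 itself had 0 to 3 counts in all libraries, controls included, so its knockdown could not be measured from the transcript. ZNF783 fell to 80.5% of its controls (log2 fold change -0.31, SE 0.055, adjusted p = 2.46e-05, edgeR). ZNF783 measured 12.5, 18.7 and 18.5 CPM in ETS1 siRNA replicates 1, 2 and 3, against 21.0, 21.6 and 22.3 CPM in the ETS1 controls, without overlap. Of all genes tested with ETS1 siRNA 35.3% did not overlap, and no test of ZNF783 in that comparison is given. ETS1 siRNA replicate 1 stood apart: set against the other replicates of its group, its counts gave a chi-square per degree of freedom of 35.6 and 34.3, where all other pairs of replicates gave 1.32 to 2.70. Results of the ETS1 comparison are given with and without that library.

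Per transcript length, FOXA1 was the highest of the 8 genes in every group. It averaged 336 ± 73.2 TPM with ETS1 siRNA and 284 ± 6.13 TPM in the ETS1 controls (SD, n = 3 each), and 337 ± 10.7 TPM with ZNF783 siRNA and 336 ± 7.15 TPM in the ZNF783 controls. The wide SD with ETS1 siRNA came from replicate 1, at 421 TPM against 295 and 293 TPM in replicates 2 and 3. Averaged over the 6 controls, FOXA1 ranked in the top 2.38% of the genes at 1 TPM or more, and HOXB13 in the top 2.84%. HOXB13 came next in every group, with 243 ± 25.9 TPM (ETS1 siRNA), 276 ± 3.97 TPM (ETS1 controls), 282 ± 8.84 TPM (ZNF783 siRNA) and 287 ± 4.15 TPM (ZNF783 controls). GRHL2 followed with means of 143 to 193 TPM over the 4 groups and GATA2 with means of 82.6 to 184 TPM. The ranges of these 4 factors did not overlap with their neighbours' in any group, with one exception: in the ZNF783 controls GRHL2, at 191 to 197 TPM, and GATA2, at 179 to 191.3 TPM, overlapped.

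The coactivators and NR3C1 lay lower, and FOXA1, HOXB13, GRHL2 and GATA2 stood above them in all 12 libraries. NCOA3 was the highest of these in every group, with 48.8 ± 6.42 TPM (ETS1 siRNA), 38.5 ± 0.727 TPM (ETS1 controls), 52.4 ± 1.58 TPM (ZNF783 siRNA) and 43.4 ± 0.954 TPM (ZNF783 controls). NCOA2 and NR3C1 stood in a different order in each experiment. NCOA2 was the higher with ETS1 siRNA, at 33.8 ± 5.49 TPM against 31.6 ± 2.78 TPM for NR3C1, with overlapping ranges. The overlap came from replicate 1. By replicate, NCOA2 measured 40.1, 30.9 and 30.3 TPM and NR3C1 34.8, 29.96 and 29.96 TPM. NCOA2 was also the higher in the ETS1 controls, at 30.4 ± 0.459 TPM against 26.1 ± 0.863 TPM, with ranges that did not overlap. NR3C1 was the higher in the ZNF783 controls, at 37.1 ± 0.963 TPM against 31.7 ± 1.10 TPM for NCOA2, without overlap. With ZNF783 siRNA it measured 38.8 ± 0.878 TPM against 37.6 ± 1.17 TPM for NCOA2, with overlap. NCOA1 was the lowest in all 4 groups, at means of 20.1 to 24.2 TPM. It overlapped with NR3C1 in the ETS1 siRNA group through replicate 1 alone (31.0 TPM). Within the p160 family NCOA3 made up 45.9 ± 1.53% of the summed TPM with ETS1 siRNA, 43.3 ± 0.413% in the ETS1 controls, 46.3 ± 1.37% with ZNF783 siRNA and 45.0 ± 0.284% in the ZNF783 controls. NCOA1 made up 20.4% to 22.6%, by group means.

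**Figure D1:**
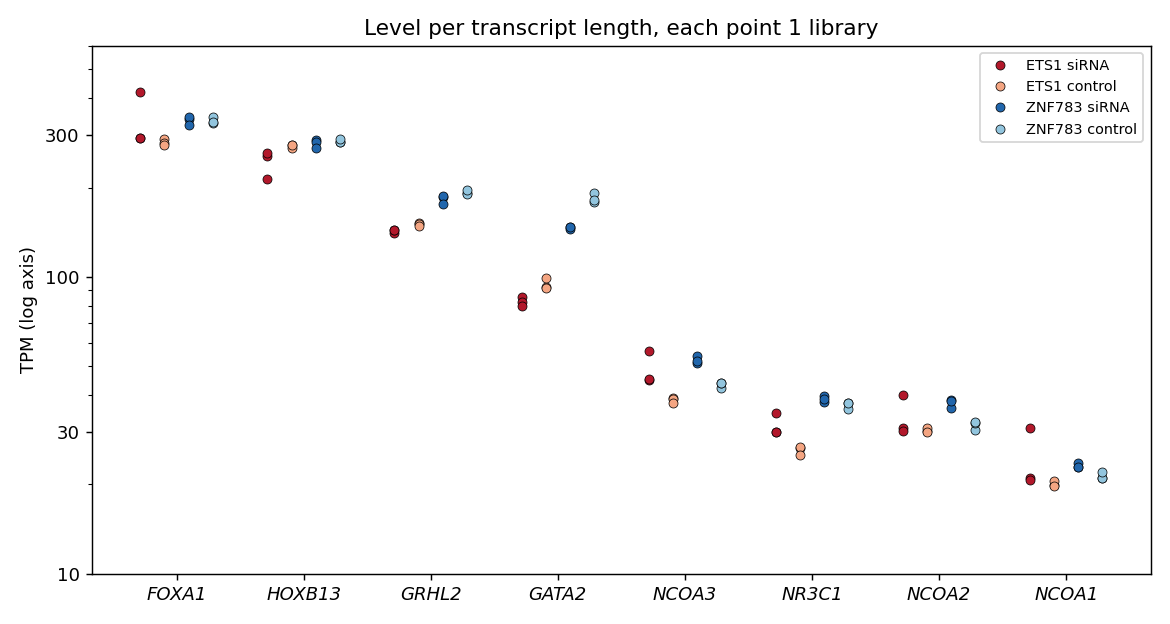
Level of each gene per transcript length in TPM (log axis), 1 point per library, coloured by group, with the genes in the order of the ZNF783 controls. FOXA1 and HOXB13 lie highest, NCOA1 lies lowest, and GATA2 lies about 1.95 times higher in the ZNF783 controls than in the ETS1 controls.

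Between the 2 control groups, which were deposited in separate tables, GATA2 had the largest ratio of the 8 genes. GATA2 stood at 184 ± 6.44 TPM in the ZNF783 controls and 94.4 ± 4.33 TPM in the ETS1 controls (SD, n = 3 each), a ratio of 1.95. NR3C1 was 1.42 times and GRHL2 1.29 times higher in the ZNF783 controls, FOXA1 1.18 times and NCOA3 1.13 times. HOXB13, NCOA1 and NCOA2 had ratios of 1.04, 1.07 and 1.04, and NCOA2 was the one gene whose ranges overlapped between these groups. The share of all genes whose ranges overlapped between the control groups was not counted. The separation therefore cannot be called particular to these 8 genes. A difference between the control treatments and one between the experiments cannot be told apart, and no test was made of these ratios.

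The upstream sequence of GATA2 and NCOA3 is shown because both genes passed with ZNF783 siRNA (edgeR, adjusted p below 0.05, given below). GRHL2 and NCOA2 passed too, but no window of these genes was read. That of NR3C1 is shown because it holds the only match to an ETS core in the windows read. RefSeq promoter windows (GRCh38.p14) were read for 5 of the 8 genes, in 14 windows for different transcript starts. The 250 bases before each start were read on the strand of the gene. Capitals mark letters that match a motif.
GATA2 chr3:128488531-128488780 (minus strand): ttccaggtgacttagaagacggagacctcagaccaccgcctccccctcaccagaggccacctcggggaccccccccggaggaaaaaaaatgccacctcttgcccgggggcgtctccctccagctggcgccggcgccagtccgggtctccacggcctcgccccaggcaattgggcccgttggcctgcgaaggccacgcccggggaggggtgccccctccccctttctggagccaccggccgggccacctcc
GATA2 chr3:128493202-128493451 (minus strand): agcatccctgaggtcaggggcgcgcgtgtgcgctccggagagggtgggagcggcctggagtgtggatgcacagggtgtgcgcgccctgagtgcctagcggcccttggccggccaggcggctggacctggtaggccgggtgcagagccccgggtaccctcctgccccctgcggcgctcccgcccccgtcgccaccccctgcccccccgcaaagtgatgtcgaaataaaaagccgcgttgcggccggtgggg
NCOA3 chr20:47501637-47501886 (plus strand): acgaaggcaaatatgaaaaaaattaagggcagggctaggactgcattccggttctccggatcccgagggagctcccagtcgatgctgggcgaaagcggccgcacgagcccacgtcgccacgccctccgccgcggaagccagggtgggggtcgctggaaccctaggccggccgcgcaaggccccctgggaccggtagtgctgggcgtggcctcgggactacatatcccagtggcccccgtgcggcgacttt
NR3C1 chr5:143405356-143405605 (minus strand): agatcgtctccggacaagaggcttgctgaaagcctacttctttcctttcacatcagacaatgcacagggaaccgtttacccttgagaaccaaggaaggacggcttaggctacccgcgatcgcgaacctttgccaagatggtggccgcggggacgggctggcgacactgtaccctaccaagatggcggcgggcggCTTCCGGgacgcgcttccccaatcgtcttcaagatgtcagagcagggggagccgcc
Both strands were searched for 4 motifs. The letters CCGGAAG served as an ETS core and AGATAA as a core for GATA factors. For FOXA factors the letters searched were TGTTTAC. For the half-site of the androgen and glucocorticoid receptors they were AGAACA. No 2 of these motifs overlap in the windows read. The windows of GATA2, NCOA3 and FOXA1 held none of these letters. The NR3C1 window above held the ETS core on its reverse strand, beginning 56 bases before the start. Another NR3C1 window held a FOXA core, beginning 59 bases before its start, and an NCOA1 window a GATA core, 240 bases before its start. Of all 35116 such windows 8.52% held the ETS core, 9.17% the GATA core, 2.98% the FOXA core and 12.4% the half-site. A match is a description of letters and not a binding site, and the counts per gene do not separate transcripts from different starts.

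The first comparison asked what changes when ETS1 is targeted. With edgeR over all 6 libraries 0 of the 8 genes passed at an adjusted p below 0.05, where 0.0461% of the 19542 genes tested did. DESeq2 called 1 of the 8, GATA2, where it called 3.62% of all genes, and limma-voom called 0, where it called 0.118%. With weights for the quality of each library limma-voom called 5 of the 8, where it called 19.1% of all genes. At an unadjusted p under 0.05, 5 of the 8 genes passed with edgeR, where 18.1% of all genes did. The same 5 genes had siRNA and control libraries that did not overlap: GATA2, HOXB13 and GRHL2 were lower in 3 of 3 siRNA libraries and NR3C1 and NCOA3 were higher in 3 of 3. Of all genes tested 35.3% did not overlap.

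GATA2 (ENSG00000179348, GRCh38 chromosome 3, 128479427 to 128493185, minus strand) measured 82.3, 83.0 and 80.5 CPM with ETS1 siRNA, against 94.9, 94.95 and 104 CPM in the controls. The 3 siRNA libraries lay close together and below every control. GATA2 thus had a log2 fold change of -0.26 (SE 0.060, 95% interval -0.40 to -0.12, adjusted p = 0.143, edgeR). Without ETS1 siRNA replicate 1 the value was -0.27 (SE 0.037) and passed (adjusted p = 1.65e-07, range over the alternatives 1.65e-07 to 0.623).

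HOXB13 (ENSG00000159184, chromosome 17, 48724763 to 48729178, minus strand) measured 160 CPM in ETS1 siRNA replicate 1 and 199 and 204 CPM in replicates 2 and 3, against 223, 219 and 227 CPM in the controls. The first library lay far below the others of its group, and all 3 lay below the controls. Over all 6 libraries the edgeR estimate was -0.25 on the log2 scale (SE 0.095, adjusted p = 0.25). It was -0.15 (SE 0.030, adjusted p = 5.65e-05, range over the alternatives 5.65e-05 to 0.571) without that library, over 1.5 times smaller in size.

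GRHL2 (ENSG00000083307, chromosome 8, 101492432 to 101669726, plus strand) measured 184, 197 and 197 CPM with ETS1 siRNA, against 212, 212 and 212 CPM in the controls. The controls were close together, with an SD of 0.295 CPM, and every siRNA library lay below them. The value of -0.14 (SE 0.051, adjusted p = 0.243, edgeR) became -0.11 (SE 0.029, adjusted p = 0.00247, range over the alternatives 0.00151 to 0.567) without ETS1 siRNA replicate 1.

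FOXA1 (ENSG00000129514, chromosome 14, 37589984 to 37596059, minus strand) measured 362 CPM in ETS1 siRNA replicate 1 but 264 and 264 CPM in replicates 2 and 3, against 268, 261 and 262 CPM in the controls. Its difference therefore rested on 1 library. With that library edgeR gave a log2 fold change of 0.17 (SE 0.12, adjusted p = 0.456) and without it one of -0.0038 (95% interval -0.061 to 0.054, adjusted p = 0.951).

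NR3C1 (ENSG00000113580, chromosome 5, 143277931 to 143435512, minus strand) measured 68.9, 61.9 and 62.2 CPM with ETS1 siRNA, against 56.4, 56.9 and 54.3 CPM in the controls. All 3 siRNA libraries lay above all controls. With edgeR the log2 fold change came to 0.20 (SE 0.066, adjusted p = 0.209), and to 0.15 (SE 0.038, adjusted p = 0.00239, range over the alternatives 0.00239 to 0.622) without ETS1 siRNA replicate 1.

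The 3 coactivator genes did not share a pattern with ETS1 siRNA. NCOA3 (ENSG00000124151, chromosome 20, 47501902 to 47656877, plus strand) measured 102, 84.8 and 86.3 CPM with ETS1 siRNA, against 75.7, 75.8 and 74.5 CPM in the controls, so every siRNA library lay above every control. With edgeR it came to 0.27 on the log2 scale (SE 0.081, adjusted p = 0.188), and 0.18 (SE 0.034, adjusted p = 6.05e-05, range over the alternatives 6.05e-05 to 0.551) without ETS1 siRNA replicate 1, over 1.5 times smaller. NCOA1 (ENSG00000084676, chromosome 2, 24491914 to 24770702, plus strand) measured 57.8 CPM in replicate 1 but 40.8 and 40.4 CPM in replicates 2 and 3, against 39.6, 41.3 and 40.2 CPM in the controls. NCOA2 (ENSG00000140396, chromosome 8, 70109762 to 70403805, minus strand) measured 86.8 CPM in replicate 1 but 69.9 and 68.7 CPM in replicates 2 and 3, against 70.1, 72.0 and 70.8 CPM in the controls. For both, replicate 1 alone was high and the other siRNA libraries lay among or below the controls. Without it the log2 fold change of NCOA1 was 0.0017 (95% interval -0.083 to 0.087) and that of NCOA2 -0.040 (95% interval -0.11 to 0.032), with adjusted p = 0.985 and adjusted p = 0.483 (edgeR).

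**Figure D2:**
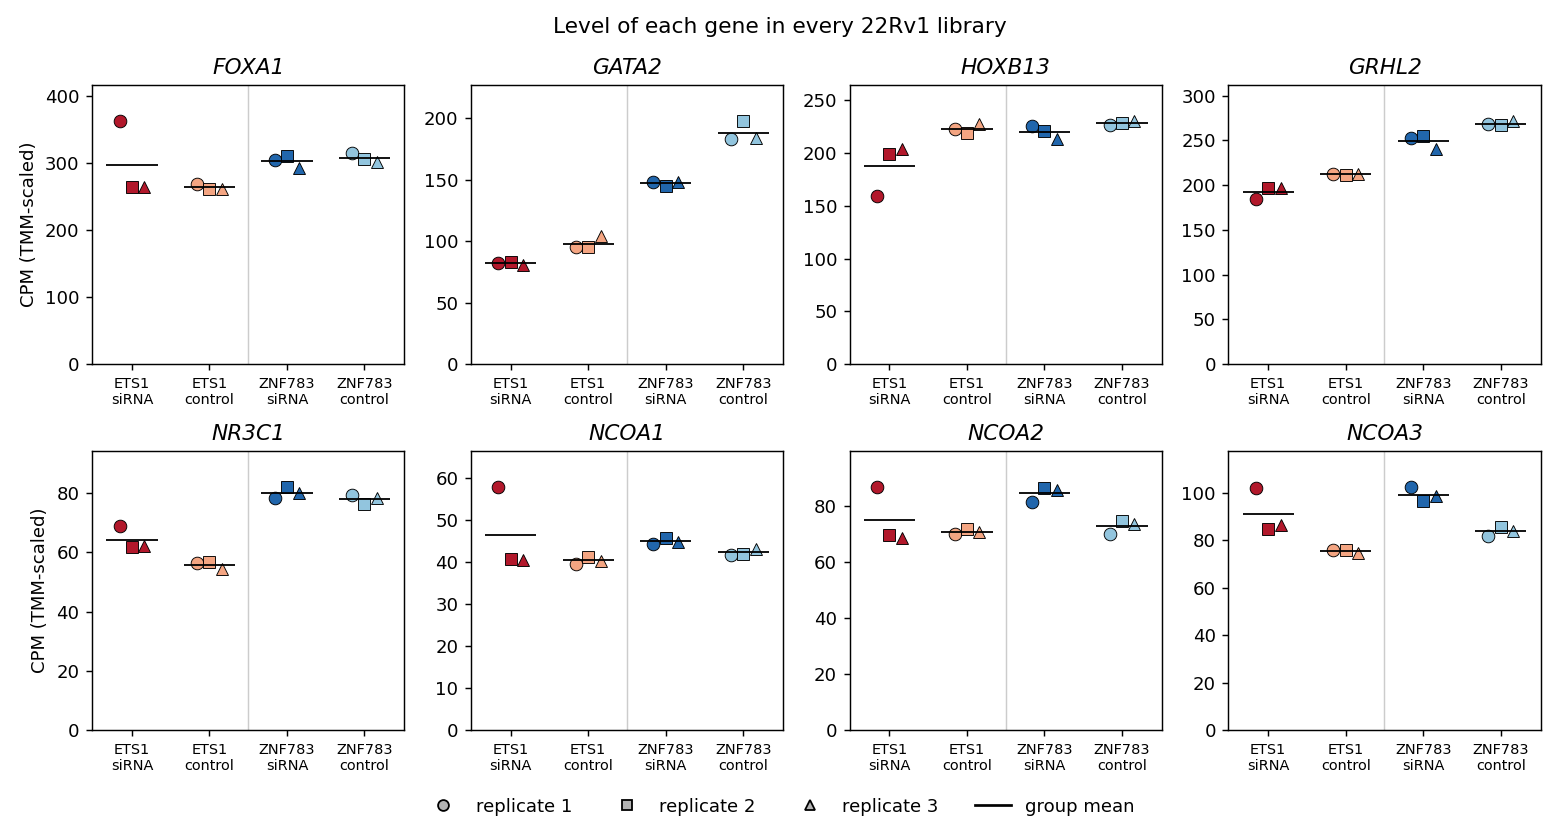
Level of each gene in CPM (linear axis from 0) in every library, with 1 symbol per replicate and a line at each group mean, siRNA left of its controls. ETS1 siRNA replicate 1 (circle) stands apart from replicates 2 and 3 in FOXA1, HOXB13, NCOA1, NCOA2 and NCOA3, and by less in NR3C1. The 3 ZNF783 siRNA libraries lie below all their controls in GATA2 and above all of them in NCOA2 and NCOA3.

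Without ETS1 siRNA replicate 1, 5 of the 8 genes passed (edgeR), 2 higher and 3 lower, where 23.0% of all genes did (9.96% higher, 13.0% lower). These were the 5 genes whose groups did not overlap. The fold changes of genes followed their GC content in this comparison (Spearman -0.643 across 10370 genes, which are not independent replicates, and -0.555 without that library). The genes that fell hold 59.7% GC (GATA2), 57.3% (HOXB13) and 49.8% (GRHL2) in their longest transcript, and those that rose 42.6% (NCOA3) and 39.1% (NR3C1). When the libraries other than replicate 1 were each corrected for a trend in GC content and in length, 4 of the 8 genes passed, where 20.3% of all genes did. They were GATA2 (-0.18, adjusted p = 2.37e-05), HOXB13 (-0.08, adjusted p = 0.0104), GRHL2 (-0.10, adjusted p = 0.00151) and NCOA3 (0.13, adjusted p = 0.00046, edgeR). NR3C1 did not (0.07, adjusted p = 0.15). Over all 6 libraries the corrected value of GATA2 was -0.08 (adjusted p = 0.623) and that of NR3C1 0.05 (adjusted p = 0.622).

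The second comparison asked what changes when ZNF783 is targeted. With edgeR 4 of the 8 genes passed, where 25.1% of the 17630 genes tested did: GATA2 and GRHL2 fell and NCOA2 and NCOA3 rose. In 6 of the 8 genes the groups did not overlap, where 38.2% of all genes did not. DESeq2 called 4 of the 8 too, where it called 15.3% of all genes, as did limma-voom with 23.7% and, with quality weights, 23.5%. The largest change among the 8 was the fall of GATA2 to 0.781 of its controls.

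GATA2 measured 148, 145 and 148 CPM with ZNF783 siRNA, against 183, 197 and 184 CPM in the controls. The siRNA libraries were close together and lay below the lowest control. GATA2 fell with a log2 fold change of -0.36 (SE 0.031, 95% interval -0.42 to -0.29, adjusted p = 3.69e-12, edgeR). The fall passed under all 16 alternatives, between -0.37 and -0.25, the smallest being the value corrected for GC content and length (adjusted p = 7.39e-10).

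GRHL2 measured 253, 255 and 239.9 CPM with ZNF783 siRNA, against 268, 267 and 271 CPM in the controls, each siRNA library below each control. GRHL2 fell by 0.11 on the log2 scale (SE 0.028, adjusted p = 0.00334, edgeR). Without ZNF783 siRNA replicate 3, the lowest library, it was -0.08 and did not pass (adjusted p = 0.0637, range over the alternatives 0.00165 to 0.127). HOXB13 measured 226, 221 and 213 CPM with ZNF783 siRNA, against 227, 228 and 230.1 CPM in the controls. The 3 siRNA libraries lay below the controls by little, and the log2 fold change of -0.05 (95% interval -0.11 to 0.0065, adjusted p = 0.199) did not pass. Corrected for GC content and length it was 0.03 (adjusted p = 0.397).

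FOXA1 measured 304, 311 and 293 CPM with ZNF783 siRNA, against 315, 305 and 302 CPM in the controls, and the groups overlapped. Its log2 fold change was -0.02 with a 95% interval of -0.077 to 0.034 (adjusted p = 0.625, edgeR). NR3C1 measured 78.3, 82.0 and 80.05 CPM with ZNF783 siRNA, against 79.2, 76.3 and 78.5 CPM in the controls, again with overlap. Its value was 0.04 (95% interval -0.041 to 0.11, adjusted p = 0.539), and -0.04 (adjusted p = 0.525) once corrected for GC content and length.

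All 3 coactivator genes were higher in every ZNF783 siRNA library than in every control, and 2 of the 3 passed. NCOA3 measured 102, 96.5 and 98.7 CPM with ZNF783 siRNA, against 81.7, 85.6 and 83.9 CPM in the controls, a log2 fold change of 0.25 (SE 0.037, 95% interval 0.17 to 0.32, adjusted p = 1.11e-06, edgeR). NCOA2 measured 81.7, 86.8 and 86.0 CPM with ZNF783 siRNA, against 70.1, 75.0 and 73.7 CPM in the controls, a log2 fold change of 0.21 (SE 0.039, 95% interval 0.13 to 0.29, adjusted p = 4.26e-05). NCOA1 measured 44.2, 45.8 and 44.7 CPM with ZNF783 siRNA, against 41.8, 42.0 and 43.2 CPM in the controls. Its value of 0.08 (95% interval -0.012 to 0.18, adjusted p = 0.209) did not pass. The summed TPM of the family was 113 ± 0.115 with ZNF783 siRNA and 96.5 ± 2.36 in the controls (SD, n = 3 each).

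In this comparison too fold changes followed GC content (Spearman -0.528 across 10370 genes). The transcripts of NCOA2 and NCOA3 hold 43.4% and 42.6% GC and those of GATA2 and GRHL2 hold 59.7% and 49.8%. After that correction the same 4 genes passed, with GATA2 as given above, NCOA3 at 0.20 (adjusted p = 2.08e-05), NCOA2 at 0.17 (adjusted p = 0.000426) and GRHL2 at -0.10 (adjusted p = 0.00165). In 1 fit of all 12 libraries, whose spread between replicates includes ETS1 siRNA replicate 1, GATA2 alone of the 4 passed for ZNF783 siRNA (adjusted p = 0.00189). The estimates of the others in that fit were 0.23 for NCOA3 (adjusted p = 0.0686), -0.12 for GRHL2 (adjusted p = 0.127) and 0.21 for NCOA2 (adjusted p = 0.186).

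**Figure D3:**
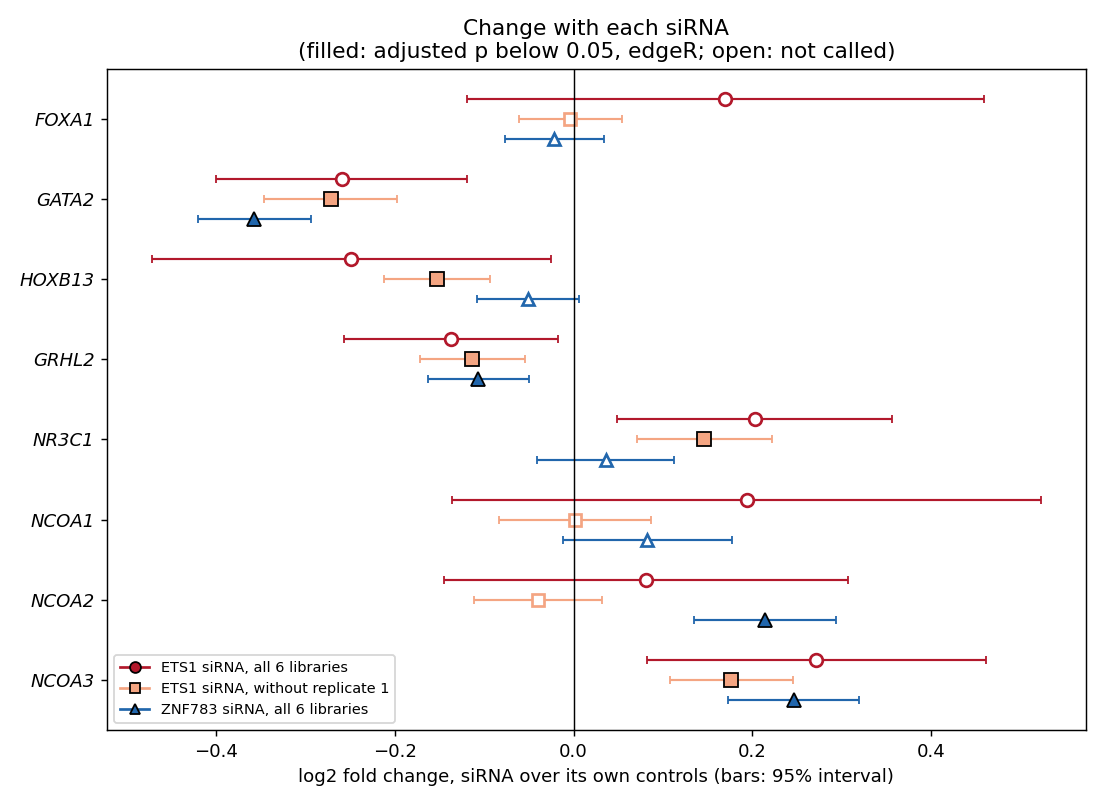
Log2 fold change of each gene, siRNA over its own controls, with 95% intervals, for ETS1 siRNA with all 6 libraries, ETS1 siRNA without replicate 1, and ZNF783 siRNA. Filled symbols passed at an adjusted p below 0.05 (edgeR), and GATA2, GRHL2 and NCOA3 are filled both for ZNF783 siRNA and for ETS1 siRNA without replicate 1.

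The effects of the 2 siRNAs were then compared directly in a fit of all 12 libraries, in which each siRNA has its own controls. The difference is the ETS1 siRNA change minus the ZNF783 siRNA change. With edgeR 0 of the 8 genes passed, where 1.68% of 19594 genes did, 1 of the 8 had an unadjusted p under 0.05, and 0 passed with DESeq2 (3.42% of all genes) and with limma-voom (1.56%). With quality weights limma-voom called 1, NCOA2, where it called 12.3% of all genes. NR3C1 had the smallest unadjusted p, with a difference of 0.18 (SE 0.074, 95% interval 0.019 to 0.34, adjusted p = 0.273). For GATA2 the difference was 0.11 (95% interval -0.038 to 0.26), for GRHL2 -0.02 (-0.14 to 0.11) and for NCOA3 0.04 (-0.16 to 0.24), and each of these intervals includes 0.

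NCOA2 differed between the siRNAs once ETS1 siRNA replicate 1 was left out. The difference was -0.26 (SE 0.052, 95% interval -0.36 to -0.15, adjusted p = 0.00032, edgeR), and 1 of the 8 genes passed where 13.7% of all genes did. NCOA2 was higher than the controls in 3 of 3 libraries with ZNF783 siRNA and in 0 of the 2 remaining libraries with ETS1 siRNA. Over all 12 libraries its difference was -0.12 (SE 0.11, adjusted p = 0.653, range over the alternatives 9.84e-05 to 0.797). With all 12 libraries kept, limma-voom with quality weights gave -0.24 (adjusted p = 0.00619). HOXB13 had a difference of -0.10 (adjusted p = 0.0776) without that library, and of -0.12 (adjusted p = 0.0125) when corrected for GC content and length too. In that setting 2 of the 8 genes passed, where 16.6% of all genes did.

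Other genes around the receptor were counted in lists. The lists were chosen with earlier results of these data known, so their counts are no independent support. Values of list genes, here and below, were not corrected for the trend of fold changes with GC content. The shares of all genes tested that passed, against which these counts stand, were 0.0461% with ETS1 siRNA, 23.0% without ETS1 siRNA replicate 1 (9.96% higher, 13.0% lower) and 25.1% with ZNF783 siRNA (11.3% higher, 13.8% lower). Of 20 other coregulators 0 passed with ETS1 siRNA (median log2 fold change 0.09, against 0.0066 over all genes tested) and 7 with ZNF783 siRNA, 2 higher and 5 lower where 25.1% of all genes passed (median 5.7e-05, against 0.0017 over all genes). With ZNF783 siRNA TBL1X, a subunit of the corepressor complex, fell by 0.22 (adjusted p = 3.48e-06, edgeR). The arginine methyltransferase genes PRMT1 (-0.20, adjusted p = 4.14e-06) and CARM1 (-0.19, adjusted p = 8.6e-05) also fell. CARM1 methylates histones together with the p160 coactivators. CARM1 and PRMT1 share exon bases with other annotated genes, so their counts are uncertain. Without ETS1 siRNA replicate 1, 5 coregulators rose and 5 fell with ETS1 siRNA, where 23.0% of all genes passed. Their median then turned to -0.03, against -0.0042 over all genes tested. Among them TBL1X rose by 0.20 (adjusted p = 8.25e-06, edgeR). The E3 ligase gene PIAS1 rose by 0.15 (adjusted p = 0.00146), with 6193 exon bases shared with genes on the opposite strand.

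Of 9 chaperones, cochaperones and immunophilins that act on steroid receptors, 0 passed with ETS1 siRNA (median -0.06). With ZNF783 siRNA 4 passed, 3 higher and 1 lower, where 25.1% of all genes passed (median 0.0010). HSPA8, the constitutive HSP70, rose by 0.16 (adjusted p = 4.47e-07, edgeR), the immunophilin gene FKBP5 by 0.11 (adjusted p = 0.00119) and the p23 cochaperone gene PTGES3 by 0.10 (adjusted p = 0.00176), while BAG1 fell by 0.11 (adjusted p = 0.013). Without ETS1 siRNA replicate 1, 1 of the 9 rose and 4 fell with ETS1 siRNA, where 23.0% of all genes passed (median -0.06). HSP90AB1 then fell by 0.14 (adjusted p = 3.19e-05) and FKBP5 fell by 0.13 (adjusted p = 0.000168), while HSP90AA1 rose by 0.10 (adjusted p = 0.00317). HSPA8 shares 175 exon bases with genes on its own strand and HSP90AA1 197 with a gene on the opposite strand.

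Genes known as induced by androgen gave 0 calls with ETS1 siRNA among 14 tested (median -0.03) and 8 with ZNF783 siRNA among 13 tested, 5 higher and 3 lower where 25.1% of all genes passed (median -0.0074). With ZNF783 siRNA the elongation factor gene ELL2 rose by 0.22 (adjusted p = 3.1e-07, edgeR) and KLK3, which encodes prostate-specific antigen, fell by 0.51 (adjusted p = 6.4e-05). With ETS1 siRNA replicate 1 left out, 3 of the 14 rose and 3 fell with ETS1 siRNA, where 23.0% of all genes passed (median 0.0099). NDRG1 then fell by 0.32 (adjusted p = 3.76e-07), and ELL2, which shares 36 exon bases with a gene on the opposite strand, rose by 0.15 (adjusted p = 4.56e-05). Genes known as induced by glucocorticoids, the hormones of NR3C1, gave 0 calls among 10 with ETS1 siRNA (median -0.09). Leaving out ETS1 siRNA replicate 1, 1 of the 10 rose and 4 fell where 23.0% of all genes passed (median -0.04). Among those that fell was the metallothionein gene MT2A (-0.23, adjusted p = 0.000124, edgeR). With ZNF783 siRNA 2 rose and 3 fell where 25.1% of all genes passed (median 0.01), among them the zinc finger gene ZBTB16 (0.20, adjusted p = 8.87e-06) and the phosphatase gene DUSP1 (-0.29, adjusted p = 4.57e-08). FKBP5 belongs to these 2 lists and to the chaperones.

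Of 11 epithelial genes linked to GRHL2 and tested with ZNF783 siRNA 6 fell and 2 rose (median -0.13, against 0.0017 over all genes), where 13.8% of all genes fell and 11.3% rose. The tight junction genes CLDN7 and CLDN4 fell by 0.27 (adjusted p = 3.88e-09, edgeR) and 0.22 (adjusted p = 4.61e-08). The splicing regulator gene ESRP1 rose by 0.18 (adjusted p = 6.99e-06) and the receptor tyrosine kinase gene ERBB3 by 0.23 (adjusted p = 4.89e-09). In their longest transcripts CLDN7 and CLDN4 hold 59.6% and 57.5% GC, and ESRP1 and ERBB3 42.8% and 52.0%. The part of GC content in these changes was not tested. With ETS1 siRNA 0 of 12 passed (median -0.10). Without replicate 1, 5 of the 12 fell and 0 rose (median -0.08), where 13.0% of all genes fell and 9.96% rose. The falls were led by CLDN4 (-0.49, adjusted p = 2.22e-15, edgeR) and the protease inhibitor gene SPINT1 (-0.25, adjusted p = 3.65e-09). CLDN7, ERBB3 and SPINT1 share exon bases with other annotated genes.

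**Figure D4:**
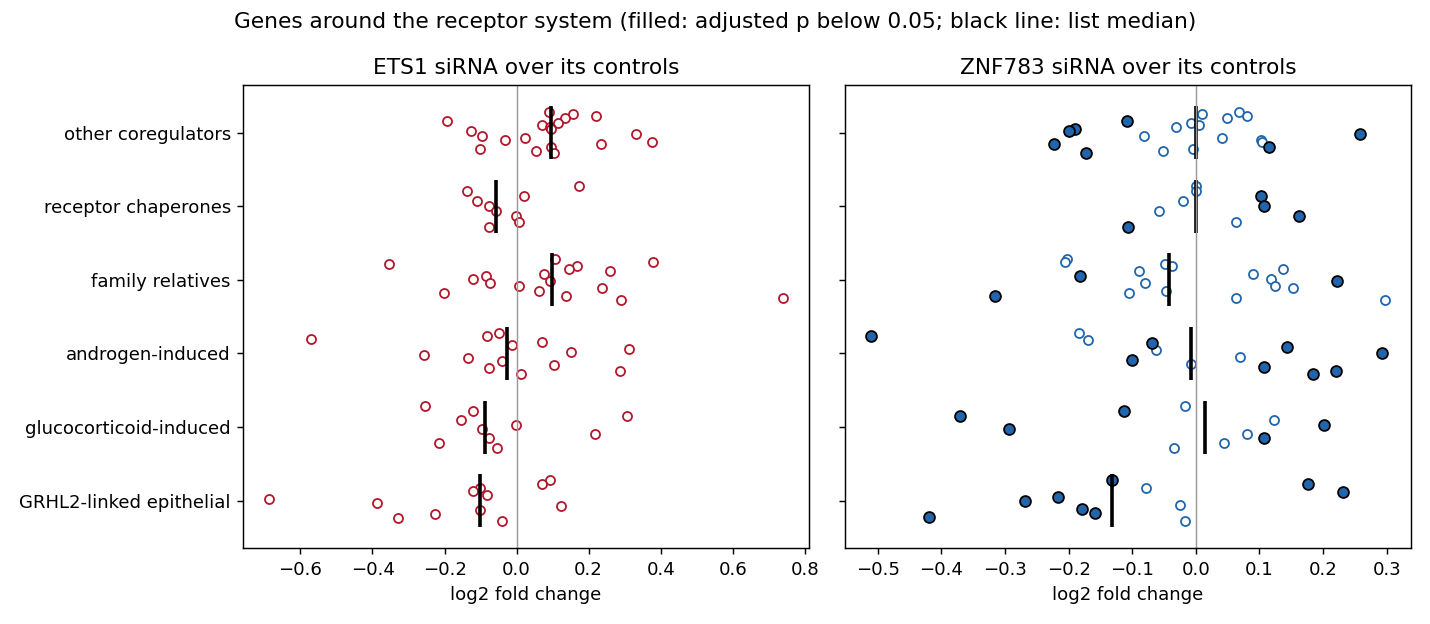
Log2 fold change of each tested gene of 6 lists with ETS1 siRNA (left) and ZNF783 siRNA (right), both over their own controls, with filled points for genes that passed (edgeR) and a black line at each list's median. With ETS1 siRNA 0 genes are filled, while with ZNF783 siRNA filled points lie on both sides of 0 in all 6 lists.

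Over the 12 libraries, with each experiment centred on its own mean, the 3 genes most like each of the 8 had Pearson correlations of 0.962 to 0.992 among 9684 genes compared. The points share depth and the outlying library, and the values are a description. Of the 24 pairs 5 were again among the 3 most alike without ETS1 siRNA replicate 1. These were FNIP2 (0.986 over 12 libraries) and FOXO1 (0.983) for NCOA3, ASPH (0.986) and PAXBP1 (0.984) for NR3C1, and SLC26A1 (0.978) for GRHL2. For FOXA1, GATA2, HOXB13, NCOA1 and NCOA2 none of the 3 genes recurred.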

How the data were processed

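RNA of 12 libraries of 22Rv1 cells was sequenced from total RNA with a directional kit, per the labels' protocols. The authors deposited raw read counts per gene in 1 table per knockdown. featureCounts 2.0.1 made them from read pairs over exons of a GRCh38 annotation, release 107, per the file headers. The headers show no strand option, so overlapping genes on opposite strands were not told apart. The submitters' processing notes name hg38 as the build, and no version of an aligner is given in the sources used here. FOXA1 shares 16, GRHL2 50 and NCOA3 96 exon bases with a gene on the opposite strand.

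From these counts, the siRNA libraries of an experiment were compared with the controls of the same experiment in edgeR 4.0.16 under R 4.3.3 (default expression filter, TMM scaling, robust quasi-likelihood F test, Benjamini-Hochberg adjustment over all genes tested, threshold 0.05). Standard errors come from the F statistic. The difference between the siRNAs was tested in 1 fit of 12 libraries. TPM used union exon lengths of GENCODE release 29 (GRCh38), and symbols were matched by identifier for 99.8% of the genes. Alternatives were other scalings and filters, DESeq2 1.42.0, limma-voom (limma 3.58.1) with and without quality weights, a replicate block, per-library splines on GC content and exon length, a stricter threshold, and leaving out each library. The pairs of settings that leave out ETS1 siRNA replicate 1 together with the splines, and the lists and likeness without it, were chosen after seeing the data. Same-numbered libraries did not deviate together.

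All 8 genes are named in every comparison, up to 4 genes with the smallest adjusted p from each list, and, of the 3 genes most like each of the 8, those that recurred without ETS1 siRNA replicate 1. A few genes that this rule names are not reported here. The genes and lists were chosen with earlier results of these data known, so they are no independent support. Floors are 3 counts, or 0.0612 to 0.222 CPM, and cover counting error only. No column of values was left unmapped, and replicates differed by more than sampling noise.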

Additional observations from a re-analysis of the deposited data

Results flagged for a closer look

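Of the 92 list genes tested 4 differed between the effects of the 2 siRNAs in the fit of all 12 libraries (edgeR, where 1.68% of the 19594 genes tested did, difference of the ETS1 siRNA change minus the ZNF783 siRNA change), while 0 of the 8 receptor partner genes did. TBL1X, a subunit of the corepressor complex, had a difference of 0.47 (adjusted p = 0.00403), with 104 CPM with ETS1 siRNA, 88.2 CPM in the ETS1 controls, 90.7 CPM with ZNF783 siRNA and 106 CPM in the ZNF783 controls. NDRG1, known as induced by androgen and by hypoxia, had a difference of -0.53 (adjusted p = 0.0278), with 29.7 CPM with ETS1 siRNA, 35.4 CPM in its controls, 33.5 CPM with ZNF783 siRNA and 27.5 CPM in its controls. ERBB3 had a difference of -0.30 (adjusted p = 0.0102) and FOLH1, which encodes prostate-specific membrane antigen, one of 0.36 (adjusted p = 0.00839). Without ETS1 siRNA replicate 1 all 4 passed in the same direction, at 0.42, -0.62, -0.33 and 0.33 in the order named.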

How the results depend on the processing

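With ETS1 siRNA the count of the 8 genes called was 0 with edgeR and also 0 under both other scalings, both other filters, limma-voom, the replicate block and the GC and length correction of all 6 libraries. It was 1 with DESeq2, 5 with limma-voom and quality weights, 4 in 1 fit of all 12 libraries, and 4 with the correction once ETS1 siRNA replicate 1 was left out. Leaving out 1 library at a time gave 0 to 5 calls, 5 only without ETS1 siRNA replicate 1. With ZNF783 siRNA the count was 4 throughout, at an adjusted p below 0.01 and with the replicate block too, except 1 in the fit of all 12 libraries and 3 to 4 when leaving out 1 library, 3 without ZNF783 siRNA replicate 3. For the difference between the siRNAs it was 0, also with the replicate block, but 1 for limma-voom with quality weights, 2 with the correction once ETS1 siRNA replicate 1 was left out, and 0 to 1 when leaving out 1 library. The cause of these shifts was not tested. Same-numbered siRNA and control libraries correlated at -0.24 to 0.315 in the ETS1 experiment and -0.0876 to -0.0481 in the other, so the numbers were not taken to pair them.

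The sign turned in values that were not called. With ETS1 siRNA NCOA2 stood at -0.027 with quality weights, -0.012 with the correction, -0.075 with the correction and without replicate 1, and -0.040 to 0.14 when leaving out 1 library. FOXA1 ran from -0.0038 to 0.25 when leaving out 1 library, and NCOA1 stood at -0.028 with the correction and without replicate 1. With ZNF783 siRNA the correction gave HOXB13 0.034 and NR3C1 -0.037, and FOXA1 ran from -0.040 to 0.0025 when leaving out 1 library. In the difference, quality weights gave GRHL2 0.0093, NCOA1 -0.056 and NCOA3 -0.055, and the correction gave NCOA3 -0.021. The correction without ETS1 siRNA replicate 1 gave NCOA1 -0.075, NCOA3 -0.064 and GRHL2 0.0073. Leaving out 1 library gave NCOA1 -0.082 to 0.21, NCOA3 -0.071 to 0.087 and GRHL2 -0.043 to 0.0023. All 32 ranks by level were the same in RPKM. RPKM divides the same counts by the same exon lengths, so the order within a library could not change. Other exon lengths were not tried. The 8 genes had at least 605 counts in every library.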

Other observations

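Among close relatives of the 8 genes, GATA3 averaged 8.17 CPM with ETS1 siRNA and 6.24 CPM in the ETS1 controls, and 6.72 CPM with ZNF783 siRNA and 7.78 CPM in the ZNF783 controls. The mineralocorticoid receptor gene NR3C2, the nearest relative of NR3C1, averaged 46.7 CPM with ETS1 siRNA and 42.4 CPM in its controls, and 47.8 CPM with ZNF783 siRNA and 45.6 CPM in its controls. Of 24 relatives 18 were tested with ETS1 siRNA and 0 were called. Without ETS1 siRNA replicate 1, 20 were tested, 0 rose and 3 fell, where 23.0% of all genes passed: HOXB9 (-0.28, adjusted p = 0.00407, edgeR), HOXB5 (-0.19, adjusted p = 0.0396) and HOXB3 (-0.18, adjusted p = 0.0439). With ZNF783 siRNA 18 were tested and 3 called, where 25.1% of all genes passed: HOXB3 rose by 0.22 (adjusted p = 0.026, edgeR) while HOXB9 (-0.32, adjusted p = 0.0123) and HOXC13 (-0.18, adjusted p = 0.0109) fell. HOXB3, HOXB5 and HOXC13 share exon bases with neighbouring annotated genes.

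Of the 28 pairs of the 8 genes, with each experiment centred on its own mean, HOXB13 and NCOA1 had the most negative correlation over the 12 libraries (Pearson -0.924), and it was -0.427 without ETS1 siRNA replicate 1. GRHL2 and NCOA3 followed with -0.922, and -0.867 without that library. The points share depth and the differences between the groups, and the values are a description.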
